A study of Mus musculus with 8 samples.

Results

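The clock genes described here are 10 core circadian genes and clock outputs, Arntl, Clock, Nr1d1, Nr1d2, Per1, Per2, Cry1, Dbp, Tef and Bhlhe40, chosen by name among the 23761 genes of an FPKM table. All 10 are listed, and 9 passed the filter for testing, a mean of at least 1 FPKM over the libraries, as did 10920 genes in all. FPKM give a level as fragments scaled to the length of the transcript and to the mapped fragments of the library. The table covers bone marrow-derived macrophages (BMDMs), which are macrophages grown from marrow in medium conditioned by L929 fibroblasts. Of its 8 libraries, 4 came from LysM Cre/Cre mice (LysM) and 4 from LysM Cre/Cre KLF2 flox/flox mice (K2KO), all 3 months old. The sample descriptions mark every library as vehicle. In both groups Cre recombinase replaces both alleles of lysozyme M, so Cre and the loss of Lyz2 are shared, and floxed Klf2 is what differs. Cre from this locus is active in myeloid cells. The hour at which the cells were collected is not given in the sources used here. A library's name here joins its genotype to the number, 0 to 3, that ends its column name, since the columns give a genotype but no mouse. The sample titles have the same form, so LysM1 here need not be the sample titled LysM1.

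The circadian clock is a feedback loop of transcription factors that most cells carry. BMAL1, the product of Arntl, pairs with CLOCK and activates genes through E-boxes, among them the Per and Cry genes, whose proteins inhibit the pair, and Nr1d1 and Nr1d2, whose products REV-ERBα and REV-ERBβ repress Arntl through ROR response elements. DBP and TEF are output factors that activate genes through D-boxes, and BHLHE40 (DEC1) is a repressor of E-box genes that many other signals also induce. Across a cycle Arntl peaks roughly opposite to Nr1d1 and Dbp. Where the cells of a sample share a phase, its place in the cycle can be read from evening genes against morning genes. Whether the cells used here shared a phase is not given in the sources and was not tested. Macrophages have such a clock, and it times part of their inflammatory output.

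Promoters are shown because they hold the letters of the elements through which the loop acts. The windows are from RefSeq on GRCm38.p6, cover 250 bases before to 50 bases after each start, and exist for 8 of the 10 genes with 13 starts. Each was searched on both strands, and the capitals mark the match. The E-box CACGTG was found in Per1 (166 bases before the start), Cry1 (60 bases) and Tef (127 bases), against 7.15% of 32851 promoters. The related E′-box CACGTT was found in Nr1d1 (28 bases before the start) and Cry1 (79 bases), on the opposite strand in both, where it reads AACGTG, and in 4.69% of all promoters. The ROR response element was found at the second start of Arntl, 26 bases after it, and in 0.384% of all promoters. The D-box TTATGTAA (0.938% of all promoters) and the CRE element TGACGTCA (1.79%) had no match in the 13 windows. A match is a string of letters and was not tested as a bound site.
Arntl, chr7:113207528-113207556, plus strand: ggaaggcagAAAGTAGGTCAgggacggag
Nr1d1, chr11:98775380-98775425, minus strand: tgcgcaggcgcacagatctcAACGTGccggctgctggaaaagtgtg
Per1, chr11:69098763-69098808, plus strand: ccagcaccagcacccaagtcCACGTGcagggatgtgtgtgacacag
Cry1, chr10:85185089-85185134, minus strand: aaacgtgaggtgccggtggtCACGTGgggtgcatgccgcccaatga
Tef, chr15:81802526-81802571, plus strand: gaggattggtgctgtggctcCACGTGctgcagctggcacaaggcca

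Klf2, the targeted gene, was listed at 44.1 to 72.8 FPKM across the LysM libraries and 41.6 to 59.3 FPKM across the K2KO libraries. The groups overlapped, with a log2 fold change of -0.18 (SE 0.17, limma adjusted p = 0.460). Since Klf2 does not separate the groups, directions below refer to the libraries labelled K2KO. The cells carried macrophage markers throughout. Cd68, the most abundant of them, ranged from 1637 to 1942 FPKM, and the 7 macrophage markers summed to 2884 to 3048 FPKM in every library. Lyz2 was listed at 11.5 to 22.5 FPKM. Of the macrophage markers, Mertk was higher and Lyz2 lower in the libraries labelled K2KO. In bulk RNA, fewer cells of a type and less RNA per cell cannot be told apart.

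Markers of other cells were present at various levels, some of which differed between the groups. The 5 fibroblast markers, led by Dcn, summed to 0.135 to 1.16 FPKM in the LysM libraries and 0.547 to 2.98 FPKM in the K2KO libraries. The T cell list summed to 1.70 to 2.53 FPKM against 5.06 to 5.87 FPKM, which was almost all Cd4, a coreceptor that macrophages can also express (log2 fold change 1.38, limma adjusted p = 0.000434), while Cd3e, Cd3g and Cd8a stayed at or under 0.214 FPKM. The neutrophil list, led by S100a9, summed to 135 to 249 FPKM and the osteoclast list, led by Ctsk, to 56.1 to 86.8 FPKM, with overlapping groups. The dendritic cell (Itgax), B cell (Cd79a), mast cell (Kit) and erythroid (Hba-a1) lists reached at most 7.39, 2.07, 0.700 and 1.25 FPKM. Kit, under the filter, ranged from 0.101 to 0.177 FPKM in LysM and from 0.267 to 0.394 FPKM in K2KO, without overlap, and passed with a minimum mean of 0.1 FPKM (log2 fold change 0.96, limma adjusted p = 0.0314). Ddx3y, on the Y chromosome, was listed at 0 in every library, and Xist was higher in the libraries labelled K2KO, at 11.4 to 14.1 against 13.7 to 19.6 FPKM (log2 fold change 0.45, limma adjusted p = 0.0317). The part of these cells in the clock gene levels was not tested.

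One of the clock genes, Nr1d2, differed between the groups and was higher in the libraries labelled K2KO. Genes were compared with limma on log2(FPKM + 0.1), and a gene was taken as differentially expressed at a Benjamini-Hochberg adjusted p under 0.05 over all 10920 tested genes and an absolute log2 fold change over 0.26. By this rule 1 of the 9 tested clock genes was higher, 0 were lower and 8 did not pass. Of all tested genes 18.4% were called, 9.84% higher and 8.61% lower, so the share of clock genes called was under that of all tested genes. Each clock gene was also compared by exact permutation of the libraries, unadjusted, where 35 splits of 4 and 4 give a smallest two-sided p of 0.0286. Nr1d2 was the only clock gene whose groups did not overlap, a smaller share than the 23.1% of all tested genes whose groups did not overlap. The median log2 fold change was 0.13 over the 9 clock genes and 0.01 over all tested genes. Among all genes called, 53.3% were higher in the libraries labelled K2KO, a share of 64.1% with each library scaled to its upper quartile and of 44.2% after the GC and length correction described below.

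**Figure D1:**
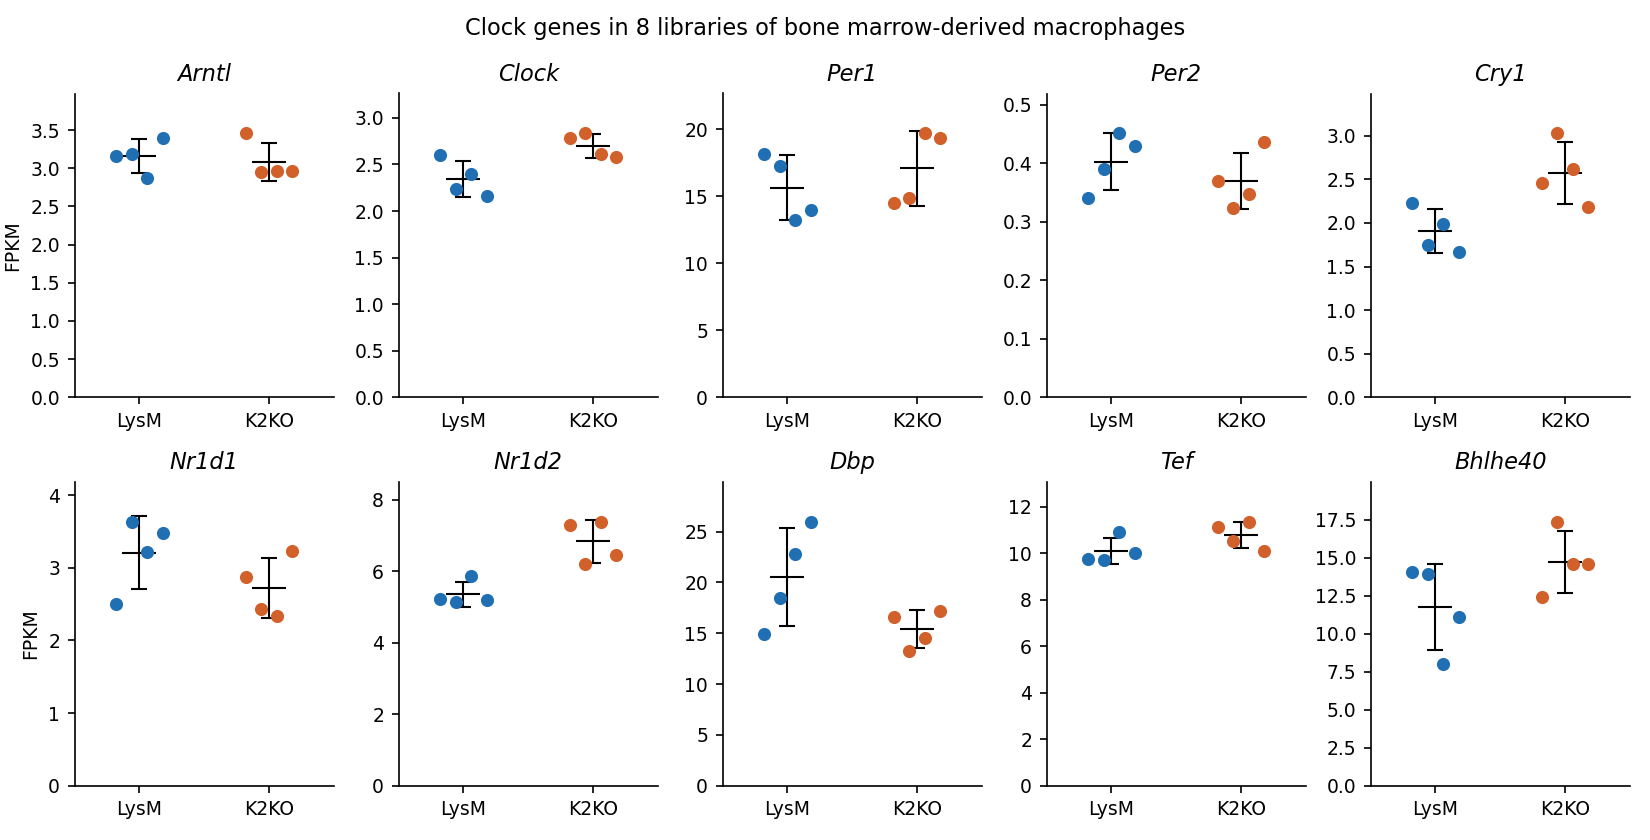
FPKM of the 10 clock genes in the 4 LysM (blue) and 4 K2KO (orange) libraries, 1 point a library, with the mean and SD as bars and every axis from 0. Nr1d2 alone has groups that do not overlap, as is the case for 23.1% of all tested genes. Per2 is the lowest gene at 0.324 to 0.451 FPKM.

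Neither activator of the loop passed the test. Arntl (ENSMUSG00000055116.8, chr7:113207465-113314126, plus strand) was at 3.17, 3.19, 2.87 and 3.40 FPKM in LysM0 to LysM3 and 3.46, 2.95, 2.97 and 2.96 FPKM in K2KO0 to K2KO3. The groups overlapped, and K2KO0 was the highest of all libraries while the other K2KO libraries were almost equal. With a log2 fold change of -0.03 (SE 0.09, limma adjusted p = 0.797), Arntl did not pass. Over all libraries Arntl varied by 1.21-fold from lowest to highest, the second smallest range of the 10 genes after Tef.

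Clock (ENSMUSG00000029238.11, chr5:76209868-76304792, minus strand), the partner of BMAL1, was at 2.60, 2.23, 2.40 and 2.16 FPKM in the LysM libraries and 2.79, 2.84, 2.61 and 2.58 FPKM in the K2KO libraries. Only LysM0 reached the K2KO range. The log2 fold change was 0.20 (SE 0.09, limma adjusted p = 0.140, exact permutation p = 0.0571), which did not pass. The bounds of Clock hold the pseudogene Ube2n-ps1 on the same strand over 459 bases, itself at 14.5 to 23.7 FPKM.

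The inhibitors did not pass the test either, and Cry1 came nearest. Per1 (ENSMUSG00000020893.17, chr11:69095217-69109960, plus strand), which responds both to the clock and to acute signals, was at 18.1, 17.2, 13.3 and 13.9 FPKM in the LysM libraries and 14.5, 14.9, 19.7 and 19.3 FPKM in the K2KO libraries. Each group held a high pair and a low pair, and the groups overlapped widely (log2 fold change 0.13, SE 0.14, limma adjusted p = 0.527, and 0.05 to 0.20 with 1 library left out). Per2 (ENSMUSG00000055866.9, chr1:91415982-91459324, minus strand) was at 0.340, 0.389, 0.451 and 0.429 FPKM against 0.370, 0.324, 0.348 and 0.436 FPKM, under the filter in every library. Its difference in mean log2(FPKM + 0.1) was -0.10 (exact two-sided permutation p = 0.343), and at this level the number of fragments behind each value is unknown.

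Cry1 (ENSMUSG00000020038.9, chr10:85131700-85185064, minus strand), the cryptochrome of the late phase of the loop, was at 2.23, 1.75, 1.99 and 1.67 FPKM in the LysM libraries and 2.46, 3.03, 2.62 and 2.18 FPKM in the K2KO libraries. The groups overlapped only through LysM0 and K2KO3. Its log2 fold change of 0.41 (SE 0.13) was the highest of the 9 tested clock genes, with a limma adjusted p of 0.0543 and an exact permutation p of 0.0571. Cry1 passed without LysM0 (adjusted p = 0.0350), without K2KO3 (adjusted p = 0.0269), with upper-quartile scaling (adjusted p = 0.0489) and without an intensity trend (adjusted p = 0.0487). It was farther from passing in other settings, such as without LysM3 (0.35, adjusted p = 0.138) or K2KO1 (0.33, adjusted p = 0.132). The same held with quantile normalization (0.30, adjusted p = 0.134).

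The pair of REV-ERB genes had opposite signs. Nr1d2 (ENSMUSG00000021775.10, chr14:18204054-18239127, minus strand) was at 5.22, 5.15, 5.88 and 5.19 FPKM in the LysM libraries and 7.30, 6.21, 7.39 and 6.45 FPKM in the K2KO libraries. Every K2KO library was above every LysM library, with means of 6.84 ± 0.596 and 5.36 ± 0.347 FPKM (SD, n = 4 each), a ratio of 1.28. The log2 fold change was 0.34 (SE 0.08, limma adjusted p = 0.0209), and the exact permutation p was 0.0286, the smallest that 4 against 4 libraries can give. The call depended on the set of libraries. It was lost without LysM1 (adjusted p = 0.0631), LysM3 (0.0794), K2KO0 (0.0636) or K2KO2 (0.0647), where the log2 fold change was 0.31 to 0.33, and kept when any 1 of the other 4 was left out. It was also lost with no filter on low values (adjusted p = 0.0634) and after a correction for GC content and length, where the log2 fold change was 0.15 (adjusted p = 0.164).

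Nr1d1 (ENSMUSG00000020889.11, chr11:98767932-98775333, minus strand) was at 2.51, 3.63, 3.21 and 3.48 FPKM in the LysM libraries and 2.88, 2.44, 2.33 and 3.23 FPKM in the K2KO libraries. LysM0 sat among the K2KO libraries and K2KO3 among the LysM libraries, and LysM2 and K2KO0 were also in the range shared by both groups. Nr1d1 did not pass, with a log2 fold change of -0.23 (SE 0.14, limma adjusted p = 0.262). It overlaps Thra, a thyroid hormone receptor gene on the opposite strand, by 1075 bases. The library kit keeps strand, but the strand setting of the quantification is not given in the sources used here. Thra was at 5.76 to 8.25 FPKM, with a log2 fold change of -0.16 (SE 0.09, limma adjusted p = 0.220).

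The output genes did not pass. Dbp (ENSMUSG00000059824.12, chr7:45705088-45710203, plus strand), the D-box activator and in many tissues the most strongly cycling of these genes, was at 15.0, 18.4, 22.8 and 26.0 FPKM in the LysM libraries and 16.6, 13.2, 14.6 and 17.2 FPKM in the K2KO libraries. LysM0 was within the K2KO range, and the other LysM libraries were above every K2KO library. The log2 fold change was -0.39 (SE 0.16, limma adjusted p = 0.113), and without LysM0 it was -0.53 with an adjusted p of 0.0282. Without LysM3 it was -0.27 (adjusted p = 0.280), and without K2KO1 it was -0.32 (adjusted p = 0.248). Dbp overlaps Sphk2, on the opposite strand and at 51.4 to 63.1 FPKM, by 737 bases.

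Tef (ENSMUSG00000022389.14, chr15:81802421-81826863, plus strand), the second D-box activator, was at 9.76, 9.71, 10.9 and 9.997 FPKM against 11.1, 10.5, 11.4 and 10.1 FPKM. Its log2 fold change was 0.09 (SE 0.06, limma adjusted p = 0.289), and its 1.17-fold range over the libraries was the narrowest of the 10. Bhlhe40 (ENSMUSG00000030103.11, chr6:108660629-108666925, plus strand) was at 14.0, 13.9, 8.004 and 11.1 FPKM against 12.4, 17.4, 14.6 and 14.6 FPKM. It had the widest range, 2.17-fold from LysM2 to K2KO1, and a log2 fold change of 0.35 (SE 0.18, limma adjusted p = 0.179), which was 0.17 without LysM2.

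The fold changes of some clock genes moved when GC content and transcript length were corrected for together. Across the 10899 tested genes with a known sequence, the log2 fold change fell as GC content rose (Spearman's rho of -0.40, a description since genes do not vary independently). Nr1d2 and Clock, at 41.8% and 40.9% GC, had the lowest GC content of the 10 and were on the higher side, and Dbp and Nr1d1, at 61.6% and 56.8%, were on the lower side, while Per1 at 59.4% was not. Cry1 and Bhlhe40 were in between at 51.6% and 49.4%, as was Arntl at 48.2%. With all libraries Cry1 and Bhlhe40 had the highest fold changes of the 9, Bhlhe40 (0.347) just above Nr1d2 (0.344). Without LysM2, Bhlhe40 was at 0.17 and Nr1d2 at 0.39. After each library was corrected for GC content and transcript length, 0 of the 9 clock genes passed and 1095 genes were called in all. The log2 fold change of Nr1d2 then had an SE of 0.07, and that of Clock was -0.06 (limma adjusted p = 0.615) and that of Dbp -0.17 (adjusted p = 0.494). That of Nr1d1 was -0.13 (limma adjusted p = 0.525). Cry1 at 0.42 (SE 0.13, adjusted p = 0.0679) and Bhlhe40 at 0.33 (adjusted p = 0.247) were little moved. What lies behind the trend with GC content was not tested.

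**Figure D2:**
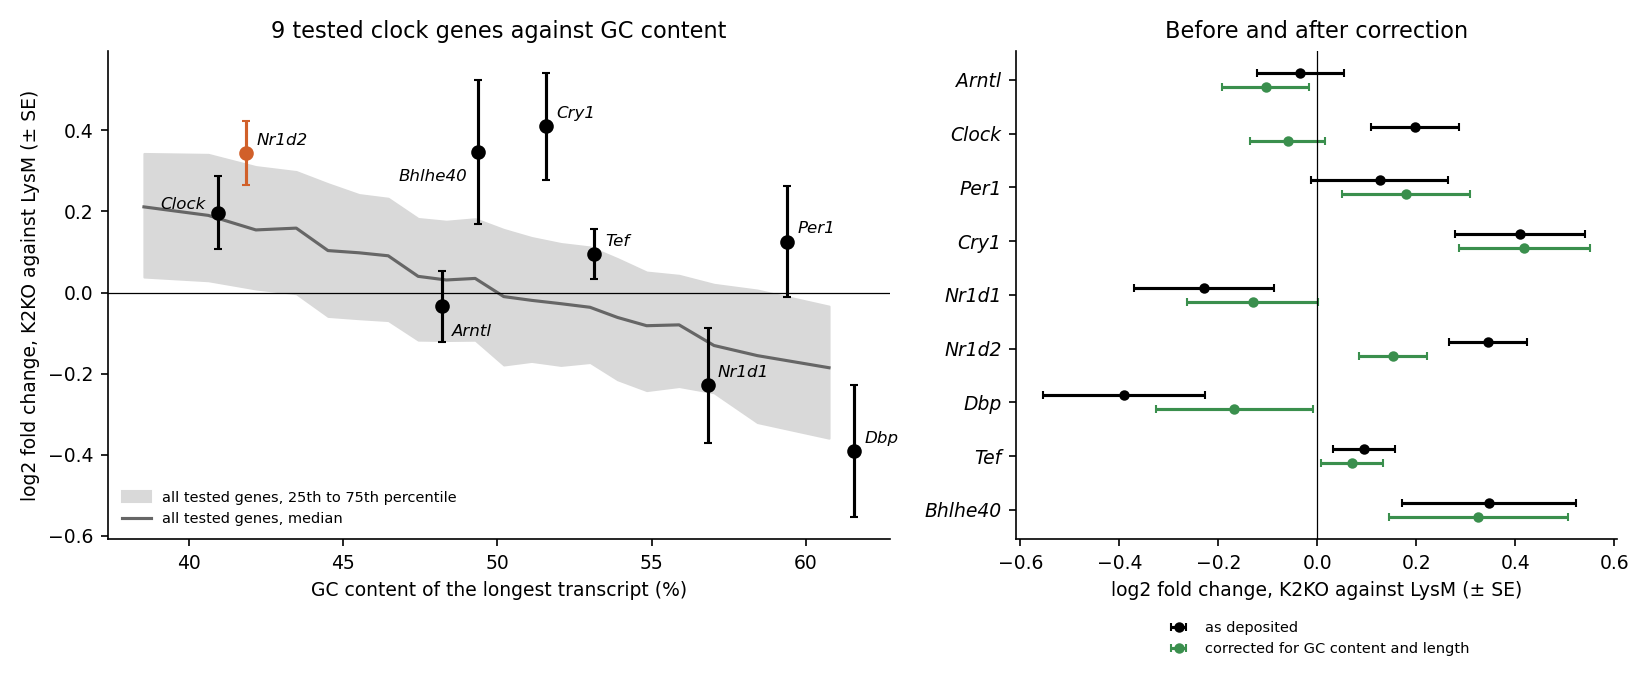
Left, log2 fold change (K2KO against LysM, bars SE) of the 9 tested clock genes against GC content in %, with the median and the 25th to 75th percentile of all tested genes. Nr1d2 (orange) lies above the median line and Dbp at the high-GC end. Right, the same values before (black) and after (green) the correction for GC content and length, where Nr1d2 moves from 0.34 to 0.15 and Clock from 0.20 to -0.06.

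Whether the libraries stood at different points of the clock was examined with an index, the mean log2(FPKM + 0.1) of 6 evening genes (Nr1d1, Nr1d2, Per1, Per2, Dbp, Tef) minus that of 3 morning genes (Arntl, Clock, Cry1). The index was 0.88, 1.21, 1.21 and 1.26 in LysM0 to LysM3 and 0.89, 0.70, 0.96 and 1.14 in K2KO0 to K2KO3. LysM0 was within the K2KO range, and K2KO3 was above LysM0, so the groups overlapped. The means were 1.14 ± 0.17 and 0.92 ± 0.18 (SD, n = 4 each), a difference of -0.22, and no test was made of a score over the chosen genes. The difference lay in the morning genes, whose mean was 0.19 higher in the libraries labelled K2KO, through Clock and Cry1, while that of the evening genes was 0.03 lower. Of the 6 evening genes, 3 (Nr1d2, Per1 and Tef) averaged higher and 3 (Nr1d1, Per2 and Dbp) averaged lower in the libraries labelled K2KO, so the evening genes did not move together. The difference in the index was -0.06 after the GC and length correction, -0.13 with quantile normalization, -0.14 without K2KO1 and -0.14 with Per1 and Cry1 left out.

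The ratios of single pairs of genes did not all lean the same way. Nr1d1 over Arntl was 0.791, 1.14, 1.12 and 1.02 in the LysM libraries and 0.830, 0.827, 0.785 and 1.09 in the K2KO libraries. Dbp over Arntl was 4.72, 5.77, 7.94 and 7.63 against 4.80, 4.48, 4.91 and 5.82. Dbp over Cry1 had the widest range, 3.57-fold, at 6.71, 10.6, 11.4 and 15.5 against 6.76, 4.36, 5.56 and 7.90. In all 3 LysM0 was within the K2KO range, as were LysM3 for Nr1d1 over Arntl and LysM1 for Dbp over Arntl. All 3 ratios averaged lower in the libraries labelled K2KO. Nr1d2 over Arntl leaned the other way, at 1.65, 1.61, 2.05 and 1.52 against 2.11, 2.11, 2.49 and 2.18, with no overlap. Nr1d1 over Nr1d2, both evening genes, was 0.480 to 0.706 in the LysM libraries and 0.315 to 0.501 in the K2KO libraries. Per2 over Arntl ranged from 0.107 to 0.157 and from 0.107 to 0.147.

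**Figure D3:**
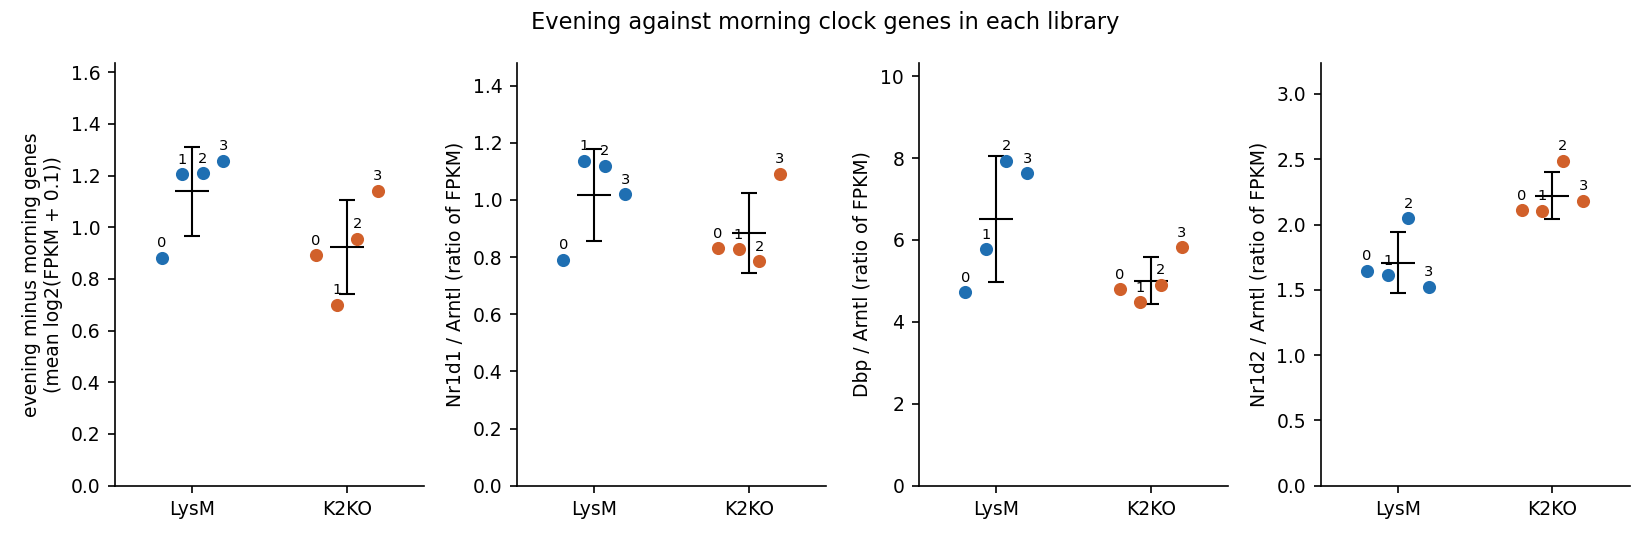
The evening minus morning index (log2 scale) and the ratios of Nr1d1, Dbp and Nr1d2 to Arntl (ratios of FPKM) in each library, numbered as in the text, with the mean and SD and axes from 0. LysM0 lies with the K2KO libraries in the first 3 panels, joined by LysM3 for Nr1d1 and LysM1 for Dbp. Only the ratio of Nr1d2 to Arntl separates the groups.

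No clock gene ran with or against Arntl across the libraries beyond what permutation of the libraries gives. Of the 9 correlations with Arntl over 8 libraries, 7 were negative and 2 positive, the positive ones being Nr1d1 and Dbp. For Nr1d1, Pearson's r was 0.29 (exact permutation p = 0.461) and Spearman's rho 0.31 (p = 0.462). The most negative was Cry1, with r = -0.36 (exact permutation p = 0.374) and rho = -0.26 (p = 0.536). The smallest Pearson p adjusted over the 9 relations was 0.866, and as deviations from the genotype mean it was 0.964. Without K2KO0 and LysM3, the libraries farthest from the median of Arntl, r was 0.15 for Nr1d1, -0.42 for Cry1, -0.19 for Dbp and -0.78 for Tef (exact permutation p = 0.0764, adjusted p = 0.681).

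Among all tested genes, those most like Arntl over the 8 libraries by Pearson's r on log2(FPKM + 0.1) were Tlr2 (0.95), Slc35a2 (0.94) and Pex26 (0.91), and the least like were Rlim (-0.95), Akr1b8 (-0.94) and Atg10 (-0.93). For Nr1d1 they were Dusp28 (0.98), Eno3 (0.97) and Immp1l (0.95), against Lrba (-0.97), C230037L18Rik (-0.96) and Mlx (-0.96). These are the extremes of 10920 genes over few libraries, and none of them is a clock gene named here.

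A pair of libraries, LysM0 and K2KO1, were the lowest of all libraries in 5 of the 7 hypoxia and glycolysis genes listed (Egln3, Bnip3, Pgk1, Ldha and Slc2a1), but not in Vegfa or Car9. Egln3, an oxygen-sensing hydroxylase that is itself induced by hypoxia, was at 1.57 FPKM in LysM0 and 2.36 FPKM in K2KO1 against 7.56 to 10.2 FPKM in the other 6 libraries. Bnip3, a hypoxia-induced mitochondrial protein gene, was at 10.5 and 15.1 FPKM there and 24.5 to 32.9 FPKM elsewhere, and Pgk1, a glycolytic enzyme gene, at 21.5 and 27.4 FPKM against 41.0 to 55.9 FPKM. The same libraries were the lowest of their group for Dbp and for Ciart, an inhibitor of CLOCK-BMAL1, at 1.08 and 1.54 FPKM. Per2 (0.340 and 0.324 FPKM) and the index (0.88 and 0.70) were also lowest of their group there. Clock (2.60 and 2.84 FPKM), Cry1 (2.23 and 3.03 FPKM) and Bhlhe40 (14.0 and 17.4 FPKM) were instead highest of their group there. With LysM0 and K2KO1 left out, the log2 fold change was -0.46 for Dbp and 0.38 for Nr1d2, which was again the 1 clock gene called. The index then differed by -0.23, and 1285 genes were called. The part of LysM0 and K2KO1 in the clock gene levels was not tested otherwise. Of the 7 hypoxia genes, all tested, Vegfa was higher (log2 fold change 0.43) and Car9 lower (-0.47), and 5 did not pass, against 18.4% of all tested genes called. The call of Vegfa was lost after the GC and length correction (0.41, limma adjusted p = 0.0755), and that of Car9 was not.

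**Figure D4:**
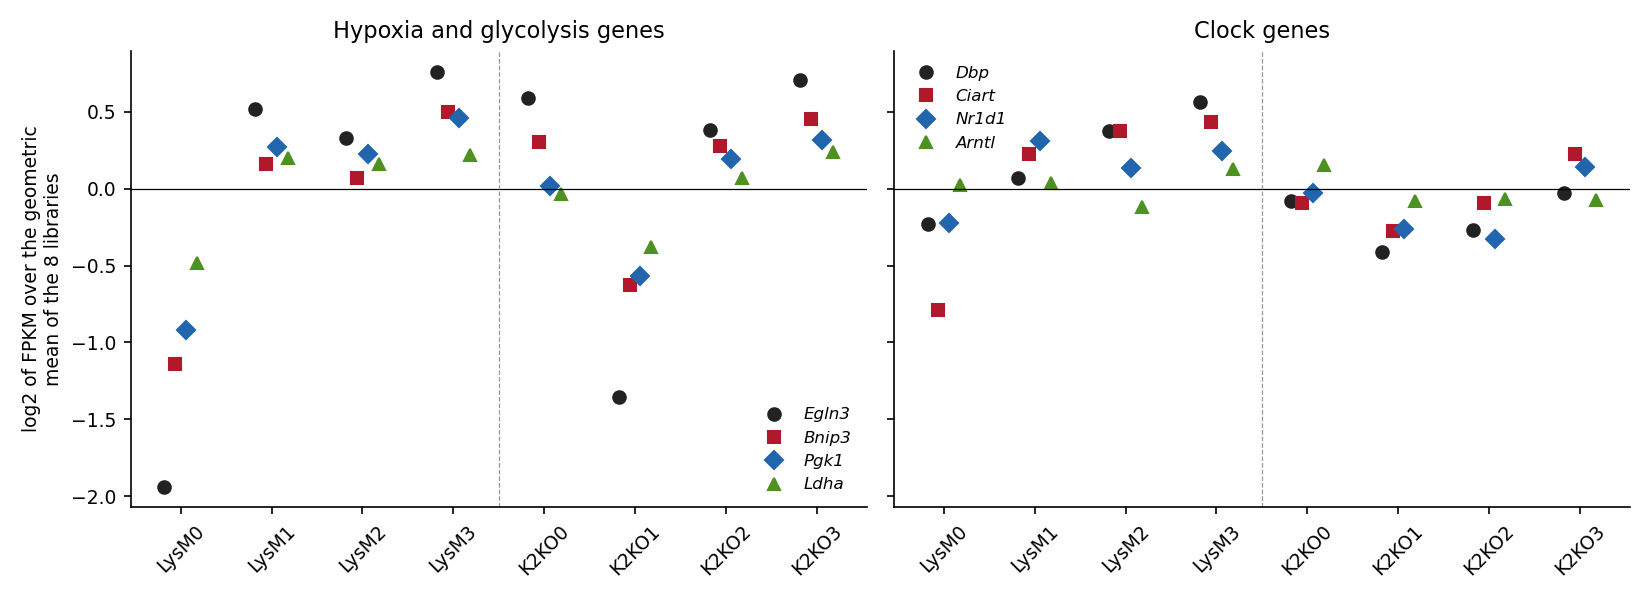
log2 of FPKM over the geometric mean of the 8 libraries, for 4 hypoxia and glycolysis genes (left) and 4 clock genes (right) in each library, with LysM and K2KO parted by the dashed line. LysM0 and K2KO1 are the lowest libraries for Egln3, Bnip3, Pgk1 and Ldha, and within their group for Dbp and Ciart.

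The other core clock and output genes gave 1 call. Of 10 genes, 9 are listed and 6 were tested, with 1 higher, 0 lower (9.84% and 8.61% of all tested genes) and a median log2 fold change of 0.28. The gene called was Bhlhe41 (DEC2), the sister of Bhlhe40, at 16.7, 17.2, 13.7 and 14.6 FPKM in the LysM libraries and 18.1, 21.2, 19.2 and 17.9 FPKM in the K2KO libraries. The groups did not overlap (log2 fold change 0.30, SE 0.09, limma adjusted p = 0.0433), and the call was lost after the GC and length correction (0.17, adjusted p = 0.174). Rora, the activator that competes with REV-ERB at ROR response elements, was at 0.899, 0.998, 1.00 and 1.00 FPKM against 1.22, 1.22, 1.28 and 1.20 FPKM, also without overlap, and at this low level its log2 fold change of 0.31 (SE 0.14, limma adjusted p = 0.140) did not pass. Rora passed without an intensity trend (adjusted p = 0.0189) and by ordinary least squares (0.0278), and was at 0.05 (adjusted p = 0.845) after the GC and length correction. Nfil3, which opposes DBP at D-boxes, averaged 29.4 and 36.0 FPKM (log2 fold change 0.29, limma adjusted p = 0.118), and passed after that correction (0.39, adjusted p = 0.0467). Cry2 (0.27), Per3 (-0.23) and Ciart (-0.12) did not pass either. With 1 library left out, Ciart ranged from -0.39 (without LysM0) to -0.0025 (without LysM3), and Cry2 was lowest at 0.17 (without K2KO2). Npas2, Arntl2 and Hlf were under the filter.

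Among 14 regulators of clock proteins, 12 were tested, 3 were higher and 0 lower, against 18.4% of all tested genes called, with a median of 0.04. Those higher were Gsk3b, a kinase of clock proteins (6.49 to 8.31 FPKM from the LysM to the K2KO mean, log2 fold change 0.35), Prkaa1, an AMP-activated kinase subunit (7.85 to 9.92 FPKM, 0.33), and Ncor1, the corepressor that REV-ERB recruits (8.36 to 10.7 FPKM, 0.34). Their limma adjusted p-values were 0.0369, 0.0141 and 0.0260. The kinase genes Csnk1d (-0.10) and Csnk1e (-0.15), which phosphorylate PER, did not pass. None of the 3 calls was kept after the GC and length correction, and Hdac3, a deacetylase that works with NCOR1, was called lower then (-0.28, limma adjusted p = 0.0189), after missing only the fold limit before it (-0.21, adjusted p = 0.0331).

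Of 10 widely clock-controlled outputs, 9 were tested, 4 were higher and 2 lower, against 18.4% of all tested genes called, with a median of 0.18. The list was chosen with earlier results of these data known, so its share of calls is a description and no test of clock outputs. Nampt, the rate-limiting enzyme of NAD salvage, was at 21.7, 22.8, 23.9 and 23.2 FPKM in the LysM libraries and 34.6, 28.9, 33.3 and 30.9 FPKM in the K2KO libraries. The groups were well apart (log2 fold change 0.47, SE 0.07, limma adjusted p = 0.00698), and Nampt was called in all 8 fits with 1 library left out. Wee1, a mitotic kinase (0.52), Por, the electron donor of cytochrome P450 enzymes (0.40), and Klf10 (0.32) were higher, with adjusted p-values of 0.0353, 0.0330 and 0.0348. Noct, a rhythmic enzyme once classed as a deadenylase (-0.31, adjusted p = 0.0453), and Tspo, a mitochondrial outer membrane protein (-0.41, adjusted p = 0.0217), were lower. After the GC and length correction Nampt was at 0.262, just over the fold limit of 0.26 (adjusted p = 0.0482), Noct at -0.49, Wee1 at 0.49 and Por at 0.52, all still called. Klf10 at 0.263 (limma adjusted p = 0.0505) and Tspo at -0.18 (adjusted p = 0.0800) were not called then.

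Of 4 macrophage genes that REV-ERB represses, 3 were tested and 2 were lower, against 8.61% of all tested genes called lower. This short list was also chosen with earlier results of these data known, so its share is no test of REV-ERB targets. Cx3cr1, the fractalkine receptor, was at 3.81, 5.79, 5.31 and 3.92 FPKM in the LysM libraries and 2.13, 1.32, 2.07 and 3.50 FPKM in the K2KO libraries, without overlap (log2 fold change -1.09, SE 0.26, limma adjusted p = 0.0239). Ccl2, a monocyte attractant, was at 8.23, 16.8, 19.4 and 16.1 FPKM against 8.59, 5.90, 6.27 and 9.37 FPKM, where LysM0 fell among the K2KO libraries (-0.96, SE 0.26, adjusted p = 0.0335). Mmp9 did not pass (-0.19), and Il6 was under the filter. Both calls were kept after the GC and length correction (-1.14 and -0.99). With 1 library left out, each was called in 2 of 8 fits. With a replicate block Cx3cr1 was called and Ccl2 was not, and neither was called with the block and the correction together.

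**Figure D5:**
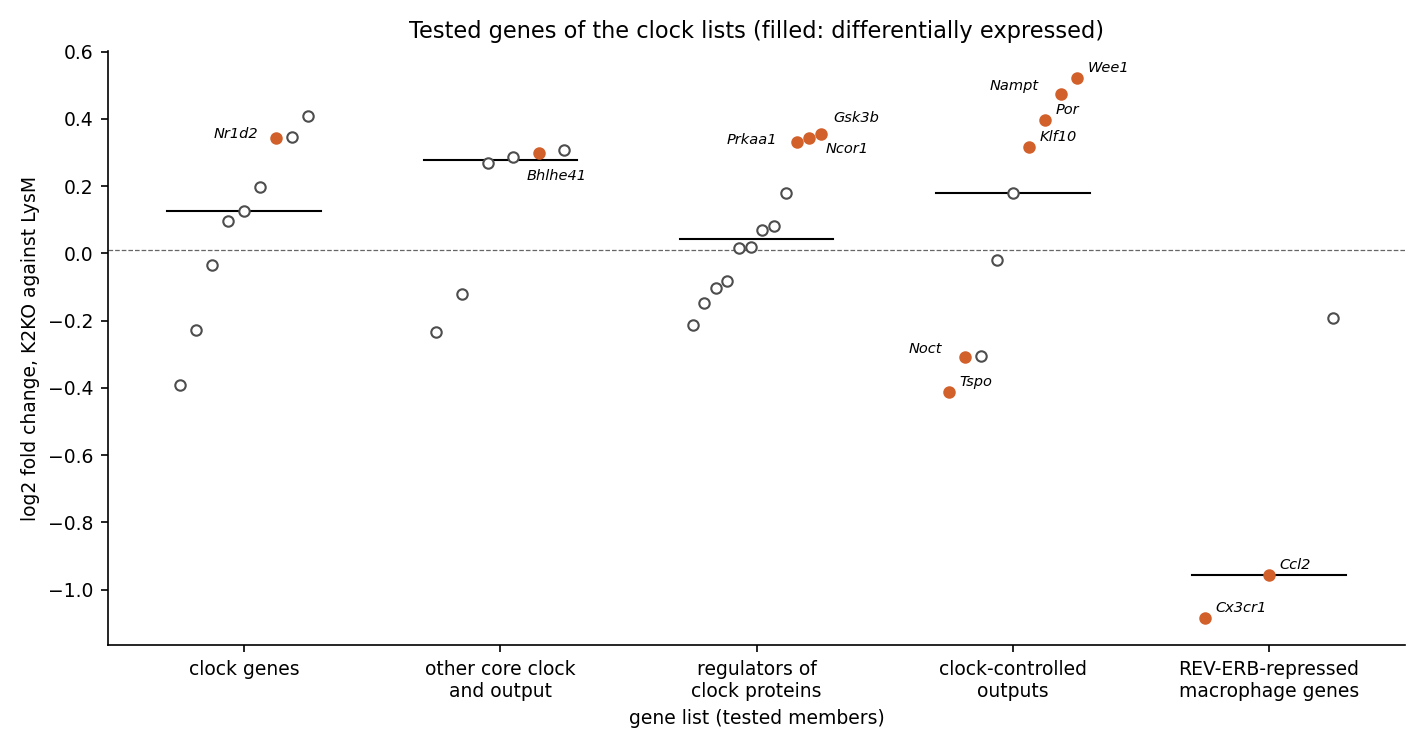
log2 fold change (K2KO against LysM) of the tested genes of the clock lists, with genes called filled and named, the median of each list as a bar and that of all tested genes as a dashed line. Nr1d2 is the 1 clock gene called, and Cx3cr1 and Ccl2 are the lowest values shown.

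Genes of signals that act on Per1 and Bhlhe40 outside the clock were described too. Their counts stand against the same 18.4% of all tested genes called, 9.84% higher and 8.61% lower. Of 6 glucocorticoid-responsive genes, which include Per1 itself and Tsc22d3, a gene also counted among the outputs above, 4 were tested and Sgk1 was higher (log2 fold change 0.38, limma adjusted p = 0.0490). Of 8 serum and CREB-responsive genes, all tested, Crem was higher (0.78, adjusted p = 0.0292) and Ier2 lower (-0.45, adjusted p = 0.0212), with 6 that did not pass. After the GC and length correction the calls of Sgk1 (0.35, adjusted p = 0.0914), Crem (0.66, adjusted p = 0.0663) and Ier2 (-0.21, adjusted p = 0.0846) were lost. Fos averaged 398 and 382 FPKM and Junb 719 and 633 FPKM, so these immediate-early genes were high in both groups. Of 6 proliferation genes, 4 were tested and 0 passed, against the same 18.4% of all tested genes called. Pcna, the most abundant of the 6, averaged 98.0 and 114 FPKM. With 1 library left out, Prkaa1 kept its call in 6 of 8 fits and Car9 in 4, and the other genes called in these lists, apart from Nampt, in 0 (Sgk1) to 3 (Crem and Ier2).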

How the data were processed

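BMDM RNA of 4 LysM and 4 K2KO mice was sequenced. The authors' methods name a stranded total RNA kit, alignment to mm10 with TopHat2 and FPKM from Cufflinks, while the submitters' processing notes name STAR, Cufflinks and Cuffdiff, with no versions. The deposited FPKM have 1 column a library and are not counts, so absolute depth and counting error are unknown. The summed FPKM were 497253 to 551608 in LysM and 448235 to 501965 in K2KO, with overlap (exact two-sided permutation p = 0.0571). Steps among low values put relative depth at roughly 0.886 (K2KO2) to 1.47 (K2KO1) times that of LysM0, with K2KO0 next highest at 1.39. The labels do not tie a column to a mouse, and p-values measure the spread between these libraries.

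Genes with a mean of at least 1 FPKM were compared on log2(FPKM + 0.1), which understates the change of low genes, with limma 3.58.1 (lmFit, eBayes with intensity trend) in R 4.3.3, with Benjamini-Hochberg adjustment. Single genes were also compared by exact two-sided permutation of libraries. GC content and length are those of the longest GENCODE M21 transcript (23645 of 23761 genes matched), and the correction is a local regression of each library (span 0.3). The other settings were pseudocounts of 1 and 0.01, a minimum of 0.1 or none, quantile and upper-quartile scaling, no trend, ordinary least squares, fold limits of 0 and 1 on the log2 scale, each library left out, a replicate block, and, chosen after seeing the data, LysM0 and K2KO1 left out together. The fit was tested on simulated data. All listed clock genes, the called genes of the other lists and up to 4 uncalled ones are named, with Rora and the untested clock genes added after their values were seen, and some items are not reported here. The members and lists were chosen with earlier results of these data known.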

Additional observations from a re-analysis of the deposited data

Results flagged for a closer look

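In 10 of 126 groups of 4 libraries, over the listed genes and the index, 1 library lay far from the other 3 (Dixon's test at 95%), where chance gives about 6.3. Arntl was 3.46 FPKM in K2KO0 against 2.95 to 2.97 in the other K2KO libraries. Nr1d2 was 5.88 FPKM in LysM2 against 5.15 to 5.22 in the other LysM libraries. The evening minus morning index was 0.88 in LysM0 against 1.21 to 1.26. LysM0 was also the far library for Rora (0.899 FPKM against 0.998 to 1.00), Csnk1d (47.0 against 50.2 to 50.6), Ldha (518 against 809 to 844) and Slc2a1, a glucose transporter gene (10.9 against 16.5 to 17.5). Wee1 was 0.863 FPKM in LysM1 against 0.986 to 1.01. Among the K2KO libraries, Csnk1e was 28.7 FPKM in K2KO3 against 25.9 to 26.2, and Klf10 was 21.5 FPKM in K2KO2 against 18.1 to 18.6.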

How the results depend on the processing

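The count of clock genes called (1, Nr1d2) was 0 with no filter, with a log2 fold limit of 1 and with the GC and length correction, and 2 (Nr1d2 and Cry1) with upper-quartile scaling and without an intensity trend. With 1 library left out it ranged from 0 to 3. The count of all genes called (2014) was 483 with no filter, 746 by ordinary least squares, 110 with a log2 fold limit of 1, 1095 with the GC and length correction, 1285 without LysM0 and K2KO1, and 337 (without LysM3) to 2837 (without K2KO3) with 1 library left out. The causes were not tested. Arntl changed sign with upper-quartile scaling (0.0086) and was more negative with quantile normalization (-0.14) and with the GC and length correction (-0.10). With 1 library left out it ranged from -0.089 to 0.0015, its sign changing without LysM3. Clock changed sign with the GC and length correction (-0.060). The difference in the index kept its sign under the 8 other settings run for it, from -0.23 to -0.06 (a replicate block was not run for it, as no test is made), and from -0.30 to -0.14 with 1 library left out. No correlation with Arntl passed in any form. Over all tested genes, same-numbered columns did not deviate together (correlations of -0.07, 0.02, 0.07 and -0.06). No pairing by number was seen, though a weak pairing or one limited to few genes would not show in these correlations. With the number as a replicate block, 1 clock gene and 2057 genes were called, and with the block and the GC and length correction 0 clock genes and 864 genes, with Clock at -0.060. Of the 17 genes called in the other lists, 10 were called with the block, 7 with the GC and length correction and 1 (Por) with both, and Nfil3, called with the correction, was not called with both. FPKM carry no fragment counts, so Per2, Rora and Wee1, near or under 1 FPKM, have an unknown counting error.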
